A study of Mus musculus with 19 samples.

Results

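A set of 9 genes of renal acid and base transport were followed in kidney RNA of hypertensive BPH/2J and normotensive BPN/3J mice. They were 9 of the 40413 genes in the deposited table and were chosen by name: the proton pump subunit genes Atp6v1b1, Atp6v0d2 and Atp6v1g3, the transcription factor gene Foxi1, the anion exchanger genes Slc26a4 and Slc4a9, the ammonia channel genes Rhbg and Rhcg, and the carbonic anhydrase gene Car2. Polyadenylated RNA was sequenced from 19 kidneys of adult mice, 1 library per animal, and 18 libraries were used. The groups were BPH/2J mice given Cmpd17b (4 libraries used of 5), BPH/2J mice given vehicle (5), BPN/3J mice given Cmpd17b (5) and BPN/3J mice given vehicle (4). Cmpd17b, a small-molecule agonist of formyl peptide receptors, was given intraperitoneally at 50 mg/kg each day for 28 days, and all libraries carried batch label 2. The labels name no transgene or deleted gene. BPH/2J and BPN/3J are inbred lines bred apart for blood pressure, so strain and blood pressure cannot be told apart.

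Intercalated cells are the acid-base cells of the connecting tubule and collecting duct. Type A cells pump protons into the urine through an apical vacuolar proton pump (V-ATPase) and return bicarbonate to the blood, while type B cells secrete bicarbonate through pendrin, the product of Slc26a4. The forkhead factor Foxi1 is needed for intercalated cell identity in the mouse, and Rh glycoproteins carry ammonia, the main form in which the kidney excretes acid. In whole kidney RNA, fewer cells of a type and less RNA per cell cannot be told apart.

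All 9 genes were detected in each of the 18 libraries, whose total counts were 21400111 to 28961333 in BPH/2J Cmpd17b mice, 25840891 to 33616451 in BPH/2J vehicle mice, 25546681 to 34244282 in BPN/3J Cmpd17b mice and 28527513 to 40998650 in BPN/3J vehicle mice. Mitochondrial genes took 16.6% to 26.6% of counts in BPH/2J Cmpd17b libraries, 16% to 21.7% in BPH/2J vehicle libraries, 12.8% to 15% in BPN/3J Cmpd17b libraries and 13.2% to 16.3% in BPN/3J vehicle libraries. The library labelled BPH/2J Cmpd17b replicate 1 went against its kidney label, with 2 counts of Atp6v1b1, 0 of Foxi1, 0 of Slc26a4 and 98 of Car2 among 30950623, and it was left out. Levels here and in what follows are CPM, counts scaled to library totals adjusted by the trimmed mean of M values (TMM). In the other BPH/2J Cmpd17b libraries 8 heart muscle genes summed to 123 to 172 CPM, against 2.78 to 7.68 CPM in BPH/2J vehicle libraries, 2.49 to 7.23 CPM in BPN/3J Cmpd17b libraries and 2.52 to 5.97 CPM in BPN/3J vehicle libraries. All 8, among them Pln (log2 fold change 2.81) and Myh6 (5.12), were higher in BPH/2J Cmpd17b than in BPH/2J vehicle mice. Between vehicle mice only Tnni3 of the 8 differed, higher in BPH/2J mice (1.58, edgeR adjusted p = 0.0138). Its levels there were low, with means of 0.922 CPM in BPH/2J and 0.302 CPM in BPN/3J vehicle mice, and the groups overlapped. The part of the heart muscle genes in the values of treated BPH/2J mice was not tested.

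Per kilobase of transcript, Car2 stood far above the other genes, at 167 ± 26.5 CPM per kilobase (mean ± SD, n = 18 libraries). Car2 encodes the cytosolic carbonic anhydrase that supplies protons and bicarbonate, and it is present in several tubule segments. Rhcg (29.9 ± 9.05), Atp6v1g3 (28.8 ± 11.3) and Atp6v1b1 (25.3 ± 6.11 CPM per kilobase) followed, and these neighbours in the order lay within each other's spread. Slc26a4 (18 ± 4.30), Slc4a9 (13.8 ± 4.2) and Rhbg (12.7 ± 4.08) came next, and Foxi1 (9.25 ± 1.68) and Atp6v0d2 (8.73 ± 0.906 CPM per kilobase) were lowest. The spreads of Atp6v1b1 and Slc26a4 overlapped, as did those of Rhbg and Foxi1, so no clear step parted them. Called means an adjusted p under 0.05 over 16421 genes in the quasi-likelihood test of edgeR.

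**Figure D1:**
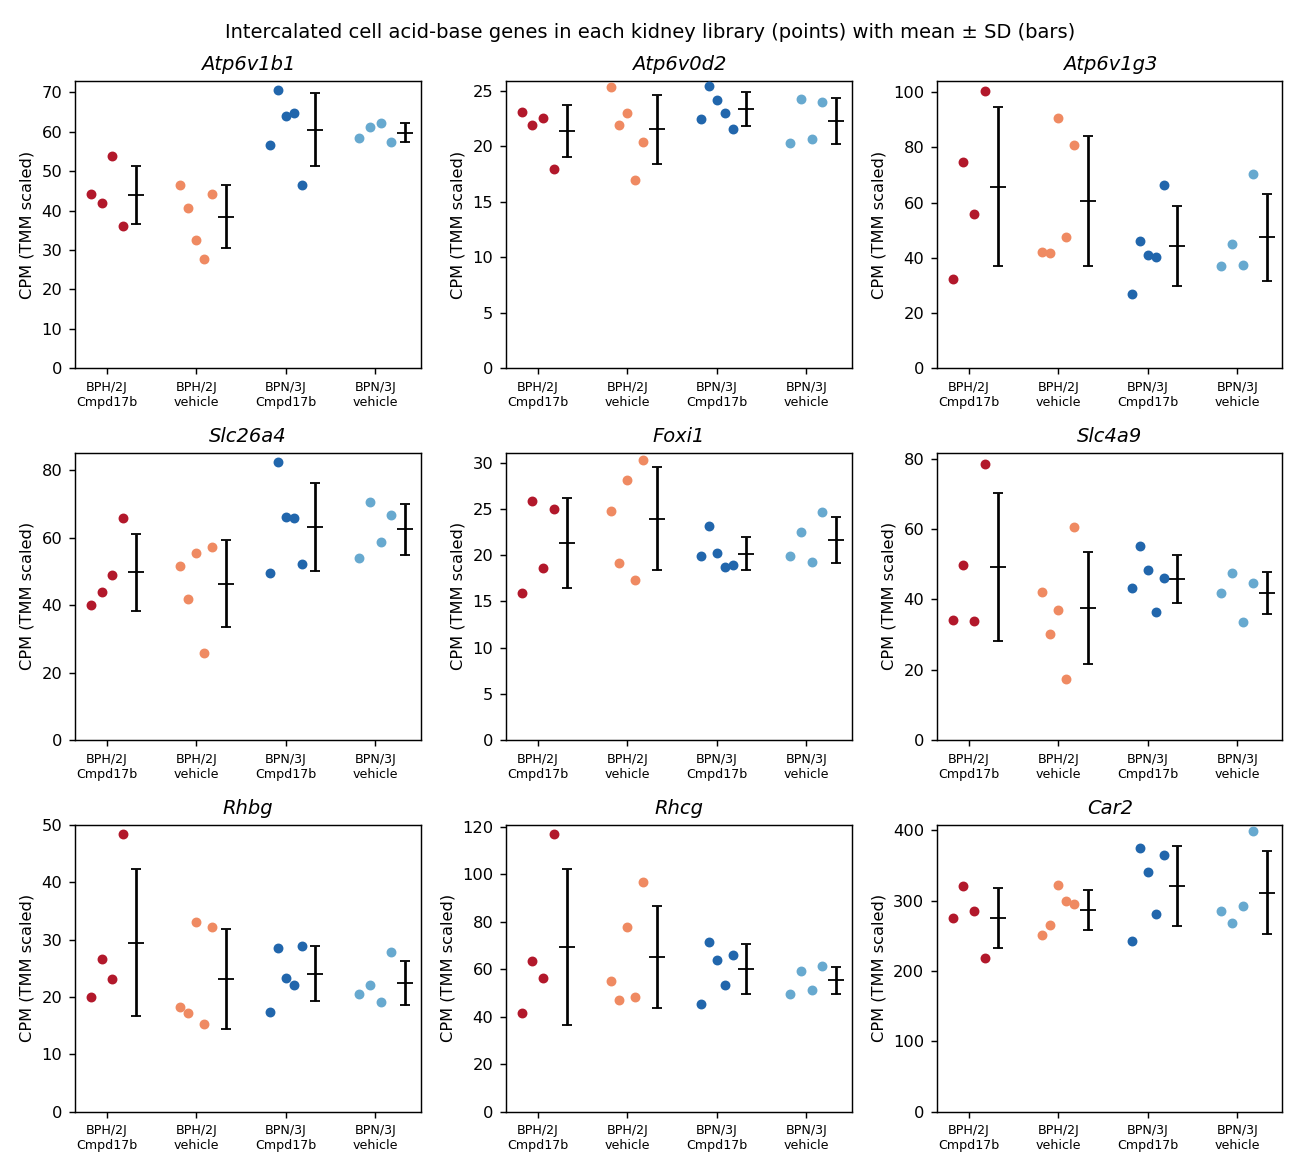
Levels of the 9 genes in every library used (CPM, linear axes from 0), by strain and treatment, with the mean ± SD beside the points. Atp6v1b1 lay between 27.6 and 46.5 CPM in BPH/2J vehicle mice and between 57.4 and 62.3 CPM in BPN/3J vehicle mice, while the other 8 genes overlapped between the strains.

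Atp6v1b1 encodes the B1 subunit of the catalytic V1 part of the proton pump, the B isoform characteristic of intercalated cells. It read 46.5, 40.8, 32.6, 27.6 and 44.3 CPM in the 5 BPH/2J vehicle mice, against 58.3, 61.2, 62.3 and 57.4 CPM in the 4 BPN/3J vehicle mice. Each BPH/2J vehicle library lay below each BPN/3J vehicle library. The mean was 38.4 ± 8.0 CPM in BPH/2J vehicle mice (SD, n = 5) and 59.8 ± 2.33 CPM in BPN/3J vehicle mice (SD, n = 4). The fold was 0.641 (95% interval 0.514 to 0.80), a log2 fold change of -0.64 (SE 0.152, edgeR adjusted p = 0.00937). It was the 1 gene of the 9 called in this comparison, in which 10.8% of all genes were called in either direction and 4.94% were called lower. Group ranges did not overlap for 13.6% of all genes and for 1 of the 9. The share called among the 9 genes was thus near that of all genes. Leaving out any 1 library kept the log2 fold change between -0.72 and -0.54 and the adjusted p between 0.00535 and 0.0307.

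Under Cmpd17b, Atp6v1b1 read 44.2, 41.9, 53.7 and 36.1 CPM in the 4 BPH/2J mice and 56.7, 70.7, 63.9, 64.7 and 46.4 CPM in the 5 BPN/3J mice. BPN/3J Cmpd17b replicate 5, at 46.4 CPM, fell below BPH/2J Cmpd17b replicate 4, at 53.7 CPM, so the groups overlapped. The mean was 44.0 ± 7.34 CPM in BPH/2J Cmpd17b mice (SD, n = 4) and 60.5 ± 9.30 CPM in BPN/3J Cmpd17b mice (SD, n = 5). The log2 fold change of -0.46 (SE 0.154) had an edgeR adjusted p of 0.0663. None of the 9 genes was called here by edgeR, where 10.4% of all genes were called in either direction and 4.65% were called lower. The group ranges overlapped for all 9, while they did not for 12.8% of all genes. Of the 9, 1 had an unadjusted p under 0.05 (24.1% of all genes). That gene was Atp6v1b1, and DESeq2 called it with an adjusted p of 0.0356. With edgeR the call was also made without BPH/2J Cmpd17b replicate 4 (-0.58, adjusted p = 0.0355), without BPH/2J vehicle replicate 4 (-0.46, adjusted p = 0.0382) and without BPN/3J Cmpd17b replicate 5 (-0.54, adjusted p = 0.0284). The strain difference itself did not differ detectably between treatments: the interaction was 0.18 (95% interval -0.27 to 0.63, edgeR adjusted p = 1.0).

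The window from 250 bases before to 50 bases after the annotated start is shown for Atp6v1b1, the called gene, and for Atp6v1g3 and Slc26a4, which had the next largest strain values under vehicle. The sequences are from RefSeq for GRCm38.p6, which is not the build of the counts, and windows were searched for 5 of the 9 genes. The windows of Atp6v0d2, Slc4a9, Rhbg and Car2 were not searched, so what they hold is not known here. The windows are chr6:83742767-83743066 on the plus strand for Atp6v1b1, chr1:138273488-138273787 on the plus strand for Atp6v1g3 and chr12:31559935-31560234 on the minus strand for Slc26a4. Capitals mark the forkhead letters TGTTTAC, searched together with TGTTTGC on both strands. The letters were chosen after the first window had been seen.
Atp6v1b1: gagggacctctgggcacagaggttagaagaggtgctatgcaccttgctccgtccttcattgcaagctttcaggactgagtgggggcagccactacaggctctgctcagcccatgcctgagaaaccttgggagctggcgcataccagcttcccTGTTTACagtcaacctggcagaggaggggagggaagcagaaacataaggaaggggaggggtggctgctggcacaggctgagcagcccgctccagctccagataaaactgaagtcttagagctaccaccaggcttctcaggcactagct
Atp6v1g3: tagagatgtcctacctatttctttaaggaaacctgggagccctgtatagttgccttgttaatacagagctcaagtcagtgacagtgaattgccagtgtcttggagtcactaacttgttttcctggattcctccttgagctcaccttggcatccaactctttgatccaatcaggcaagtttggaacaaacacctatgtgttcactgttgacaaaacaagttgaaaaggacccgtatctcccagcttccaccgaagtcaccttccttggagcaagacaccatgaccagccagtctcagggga
Slc26a4: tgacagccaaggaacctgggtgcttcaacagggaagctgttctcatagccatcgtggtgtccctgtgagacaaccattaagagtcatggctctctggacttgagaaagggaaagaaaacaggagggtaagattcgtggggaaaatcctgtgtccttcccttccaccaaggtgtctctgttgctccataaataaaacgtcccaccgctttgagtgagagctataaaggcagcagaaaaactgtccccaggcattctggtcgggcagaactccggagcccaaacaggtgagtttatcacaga
TGTTTAC began 98 bases before the start of Atp6v1b1, and neither form was found in the windows of the other 4 genes searched (Atp6v1g3, Slc26a4, Foxi1 and Rhcg). TGTTTAC on either strand occurs in 3.549% of the 27025 mouse windows in the table, TGTTTGC in 5.036% and either in 8.34%. The match is a string of letters and not a measured binding site.

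Atp6v0d2 and Atp6v1g3, the other pump subunit genes, were not called in either strain comparison. Atp6v0d2, the d2 subunit of the membrane-bound V0 part, was steady over the 18 libraries, with group means of 21.4 ± 2.35 CPM in BPH/2J Cmpd17b mice (SD, n = 4), 21.5 ± 3.14 in BPH/2J vehicle mice (n = 5), 23.3 ± 1.53 in BPN/3J Cmpd17b mice (n = 5) and 22.3 ± 2.11 CPM in BPN/3J vehicle mice (n = 4). Its log2 strain difference was -0.05 under vehicle (95% interval -0.29 to 0.19) and -0.13 under Cmpd17b (-0.37 to 0.12).

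Atp6v1g3, the G3 subunit of the V1 part, had a strain value of the opposite sign to Atp6v1b1 and a wide spread. It read 32.2, 74.6, 56.0 and 100.4 CPM in BPH/2J Cmpd17b mice and 26.7, 46.2, 41.04, 40.4 and 66.5 CPM in BPN/3J Cmpd17b mice. Under vehicle it read 42.1, 41.8, 90.8, 47.5 and 80.8 CPM in BPH/2J mice and 37.0, 44.99, 37.5 and 70.5 CPM in BPN/3J mice. The groups overlapped under both treatments. Among BPN/3J mice the values of 66.5 CPM under Cmpd17b and 70.5 CPM under vehicle stood well above the rest of their groups. Among BPH/2J vehicle mice 90.8 and 80.8 CPM did. The log2 strain difference was 0.57 under Cmpd17b (SE 0.321, edgeR adjusted p = 0.292) and 0.35 under vehicle (SE 0.324, edgeR adjusted p = 0.544).

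Foxi1, the forkhead gene, showed no strain difference detectable with these numbers of mice. It read 24.8, 19.2, 28.2, 17.4 and 30.4 CPM in BPH/2J vehicle mice, against 19.97, 22.5, 19.3 and 24.7 CPM in BPN/3J vehicle mice. Among vehicle mice, BPH/2J mice held both the lowest and the highest value. The log2 difference was 0.15 under vehicle (95% interval -0.21 to 0.50) and 0.08 under Cmpd17b (-0.27 to 0.43).

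Set against Foxi1 in the same library, Atp6v1b1 separated the vehicle groups without overlap, as it did alone. The ratio Atp6v1b1 to Foxi1 was 1.16 to 2.13 in BPH/2J vehicle mice and 2.32 to 3.23 in BPN/3J vehicle mice. Under Cmpd17b it was 1.45 to 2.89 in BPH/2J mice and 2.45 to 3.46 in BPN/3J mice, which overlapped. Atp6v1b1 was not alone in this. Under vehicle the ratio Slc26a4 to Foxi1 was 1.49 to 2.17 in BPH/2J mice and 2.699 to 3.14 in BPN/3J mice. Atp6v1b1 to Atp6v0d2 was 1.42 to 2.17 in BPH/2J and 2.39 to 3.02 in BPN/3J vehicle mice. Both ratios overlapped under Cmpd17b. Atp6v1b1 to Atp6v1g3, Rhcg to Rhbg and Slc26a4 to Slc4a9 overlapped under vehicle. All these ratios were chosen after the values were seen and are given without a test.

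**Figure D2:**
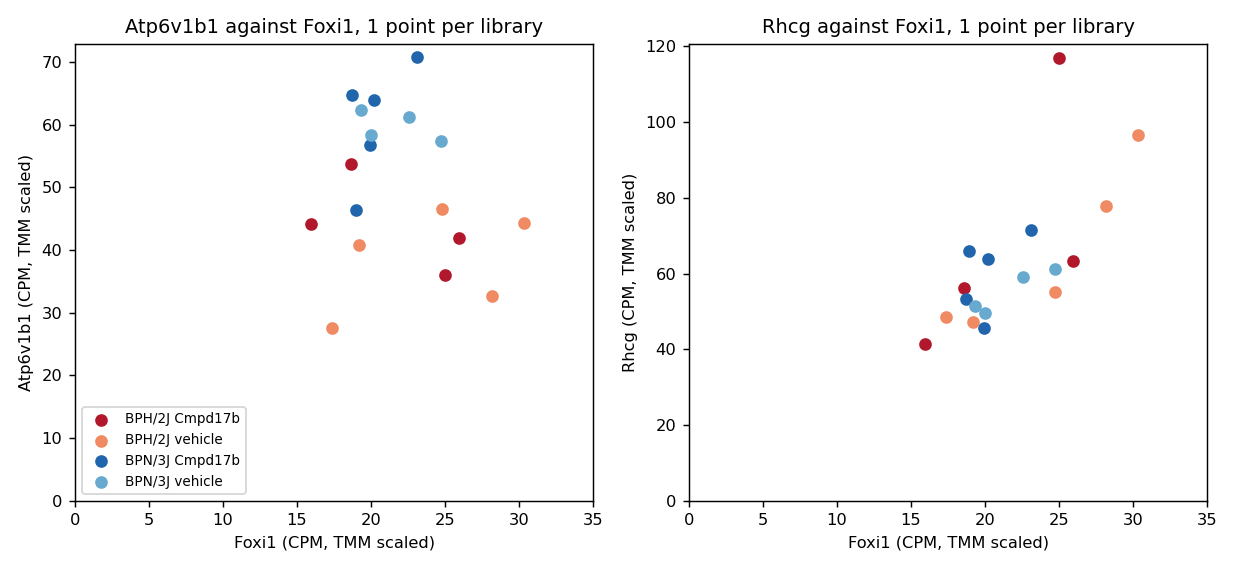
Atp6v1b1 (left) and Rhcg (right) against Foxi1, in CPM on linear axes from 0, with 1 point per library coloured by group. In BPH/2J vehicle mice Atp6v1b1 did not pass 46.5 CPM over a Foxi1 range of 17.4 to 30.4 CPM, and Rhcg was high where Foxi1 was high.

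Slc26a4 encodes pendrin, the apical chloride-bicarbonate exchanger of type B and other non-A cells. It read 51.5, 41.7, 55.5, 25.9 and 57.2 CPM in BPH/2J vehicle mice and 53.9, 70.7, 58.8 and 66.7 CPM in BPN/3J vehicle mice. Under Cmpd17b it read 40.0, 44.0, 49.0 and 66.0 CPM in BPH/2J mice and 49.6, 82.3, 66.1, 65.8 and 52.3 CPM in BPN/3J mice. Values of the strains overlapped under both treatments. The log2 strain difference was -0.43 under vehicle (SE 0.205, unadjusted p = 0.0484, edgeR adjusted p = 0.206) and -0.35 under Cmpd17b (SE 0.207, edgeR adjusted p = 0.320). Neither passed the test over all genes, and 23.9% of all genes had an unadjusted p under 0.05 in the vehicle comparison.

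Slc4a9 encodes AE4, a basolateral transporter of type B cells. It ranged from 33.9 to 78.6 CPM in BPH/2J Cmpd17b mice and 36.5 to 55.2 CPM in BPN/3J Cmpd17b mice, and from 17.3 to 60.6 CPM in BPH/2J vehicle mice and 33.7 to 47.5 CPM in BPN/3J vehicle mice. Its coefficient of variation was 42.8% in BPH/2J Cmpd17b mice and 14.9% in BPN/3J Cmpd17b mice, and 42.6% in BPH/2J vehicle mice and 14.2% in BPN/3J vehicle mice. The log2 strain difference was 0.10 under Cmpd17b (95% interval -0.49 to 0.68) and -0.16 under vehicle (-0.75 to 0.42).

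Rhbg and Rhcg encode the basolateral and the mainly apical ammonia channel of the distal nephron. Rhcg ranged from 41.4 to 116.8 CPM in BPH/2J Cmpd17b mice and 45.5 to 71.4 CPM in BPN/3J Cmpd17b mice, and from 47.2 to 96.5 CPM in BPH/2J vehicle mice and 49.7 to 61.2 CPM in BPN/3J vehicle mice. Rhbg ranged from 19.9 to 48.3 CPM in BPH/2J Cmpd17b mice and 17.4 to 28.9 CPM in BPN/3J Cmpd17b mice, and from 15.3 to 33.1 CPM in BPH/2J vehicle mice and 19.1 to 27.8 CPM in BPN/3J vehicle mice. Both genes varied more widely among BPH/2J than among BPN/3J mice, with no test of that spread. Under vehicle the log2 strain difference was 0.23 for Rhcg (95% interval -0.30 to 0.77) and 0.05 for Rhbg (-0.51 to 0.60). Under Cmpd17b it was 0.21 for Rhcg (-0.32 to 0.74) and 0.29 for Rhbg (-0.27 to 0.84).

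Car2 averaged 275 ± 42.7 CPM in BPH/2J Cmpd17b mice (SD, n = 4) and 321 ± 56.8 CPM in BPN/3J Cmpd17b mice (SD, n = 5), and 287 ± 28.4 CPM in BPH/2J vehicle mice (SD, n = 5) and 311 ± 59.2 CPM in BPN/3J vehicle mice (SD, n = 4). The log2 strain difference was -0.22 under Cmpd17b (95% interval -0.54 to 0.10) and -0.12 under vehicle (-0.43 to 0.20). Neither was called.

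**Figure D3:**
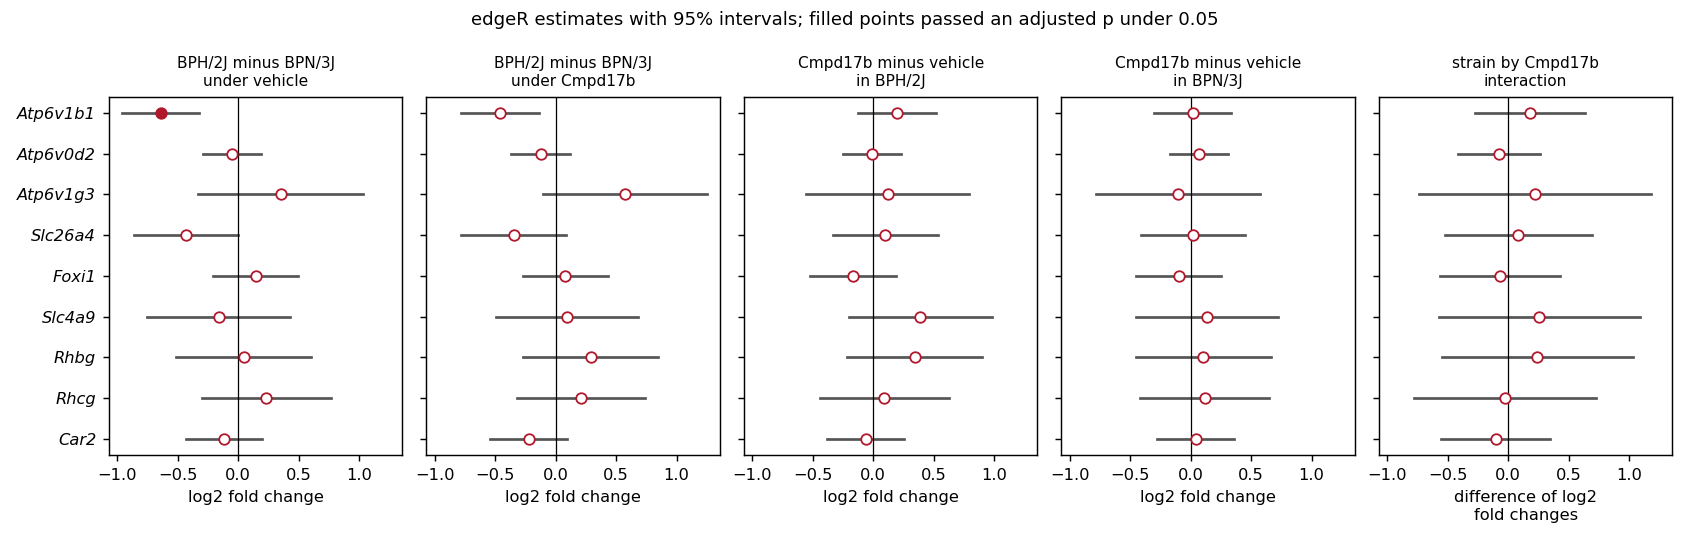
Log2 fold changes of the 9 genes with 95% intervals, in each strain and treatment comparison. The Atp6v1b1 interval under vehicle, -0.96 to -0.32, belongs to the 1 called difference.

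The 9 genes together had a median log2 strain difference of -0.05 under vehicle and 0.08 under Cmpd17b, beside 0.041 and 0.014 for all genes in the vehicle and the Cmpd17b comparison. Averaged over both treatments, a setting added after the data were seen, the log2 strain difference of Atp6v1b1 was -0.55 (SE 0.108, edgeR adjusted p = 0.00106), where 23.6% of all genes were called. Slc26a4 stood at -0.39 (SE 0.146, edgeR adjusted p = 0.0596) and Atp6v1g3 at 0.46 (SE 0.229, edgeR adjusted p = 0.154) in that average. The other 6 genes had values between -0.17 and 0.22 and were not called.

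Cmpd17b left no called change in any of the 9 genes in either strain. In BPH/2J mice the log2 differences from vehicle ran from -0.17 (Foxi1) to 0.39 (Slc4a9), with 0.164% of all genes called, and in BPN/3J mice from -0.10 (Atp6v1g3) to 0.13 (Slc4a9), with 0% of all genes called. None of the 9 had an unadjusted p under 0.05 by edgeR, DESeq2 or limma-voom, against 3.7% of all genes in BPH/2J mice and 2.53% in BPN/3J mice by edgeR. The median of the 9 was 0.10 in BPH/2J mice and 0.04 in BPN/3J mice, and their group ranges overlapped in each case, while they did not for 0.932% of all genes in BPH/2J mice and 1.78% in BPN/3J mice. The intervals leave room for sizeable changes: that of Slc4a9 in BPH/2J mice ran from -0.20 to 0.98, and that of Atp6v1g3 from -0.56 to 0.79. Atp6v0d2 had the narrowest, -0.25 to 0.23 in BPH/2J mice and -0.17 to 0.31 in BPN/3J mice. No interaction of strain and Cmpd17b was called among the 9, beside 0.0304% of all genes, and the estimates ran from -0.10 for Car2 to 0.26 for Slc4a9.

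BPH/2J Cmpd17b replicate 5 held the highest value of its group for Atp6v1g3 (100.4 CPM), Rhcg (116.8), Slc4a9 (78.6), Rhbg (48.3) and Slc26a4 (66.0), and the lowest for Atp6v1b1 (36.1), Atp6v0d2 (17.9) and Car2 (218 CPM). It also had the highest mitochondrial share, 26.6%, and the part of that share in these values was not tested. Without it, the log2 difference of Cmpd17b and vehicle BPH/2J mice was 0.07 for Slc4a9, 0.0035 for Rhbg, -0.28 for Rhcg and -0.16 for Atp6v1g3.

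Within groups, 6 of the 9 genes varied together from mouse to mouse. Log2 CPM less the group mean gave Pearson's r of 0.951 for Rhbg and Rhcg and 0.904 for Rhbg and Atp6v1g3 over the 18 libraries. Among the 15 pairs of Rhcg, Rhbg, Foxi1, Slc4a9, Slc26a4 and Atp6v1g3, a set chosen after the values were seen, r ran from 0.513 to 0.951 with a median of 0.784, and Spearman's rho from 0.569 to 0.963. Without the 2 libraries farthest from the middle, BPH/2J vehicle replicates 4 and 5, it ran from 0.519 to 0.946. Each r is a description without a p, since values of 1 library share its dissection, depth and scaling.

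Atp6v1b1 stood outside that pattern, with a median r of 0.036 with the other 8 genes. Its closest was Atp6v0d2 (r = 0.663), a subunit of the same pump, and its r with Atp6v1g3, another one, was -0.314. Without BPH/2J vehicle replicates 4 and 5 its r was 0.606 with Atp6v0d2, -0.560 with Atp6v1g3, -0.567 with Rhbg (-0.160 with all 18 libraries) and 0.149 with Slc26a4 (0.475 with all 18). Car2 had a median r of 0.161. Over all 36 pairs, 28 were positive, with a median r of 0.449.

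**Figure D4:**
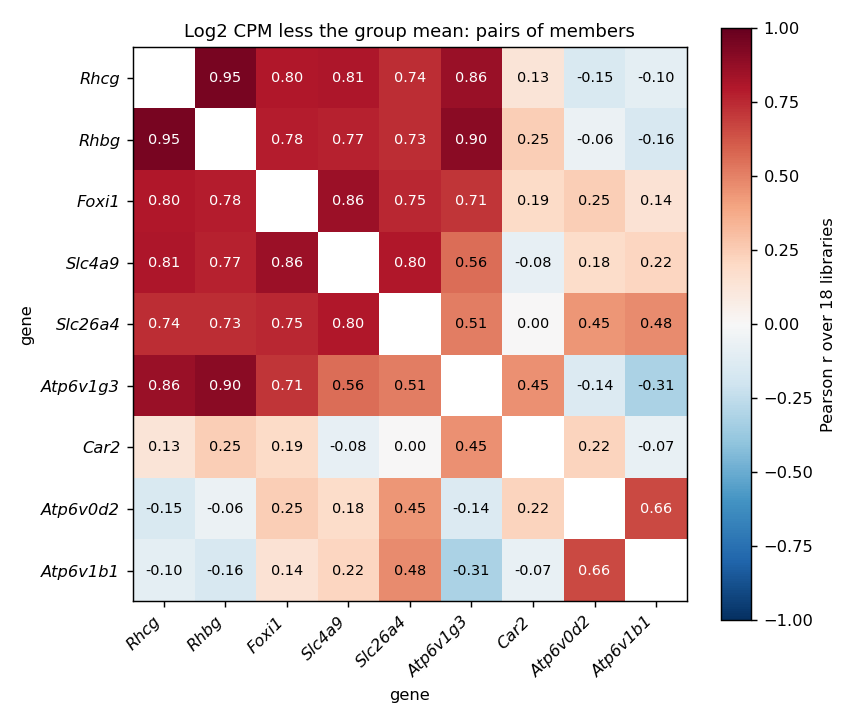
Pearson's r between each pair of the 9 genes over 18 libraries, from log2 CPM less the group mean. Rhcg, Rhbg, Foxi1, Slc4a9, Slc26a4 and Atp6v1g3 form a block of r from 0.51 to 0.95, and Car2, Atp6v0d2 and Atp6v1b1 lie outside it.

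Among 13388 genes with a mean level above 1 CPM, the 10 whose values were most like the mean of the 9 over the 18 libraries were Asb13 (r = 0.929), Hhatl, Afmid, Slc34a1, Cfb, Slc25a45, Pvalb, Hmx2, Grtp1 and Cyp2d26 (r = 0.888). Across these 13388 genes r with that mean had a median of -0.032 (5th to 95th percentile -0.664 to 0.662). Slc34a1 (r = 0.896), the phosphate transporter of the proximal tubule, and Pvalb (r = 0.891), a marker of the distal convoluted tubule, were among them. Markers of the distal convoluted and connecting tubule were positive for 7 of 7 genes, with a median r of 0.664. Those of the thick ascending limb were negative for 4 of 5, among them Slc12a1 (r = -0.850), the sodium-potassium-chloride transporter, and Ptger3 (r = -0.870), a prostaglandin receptor. Proximal tubule markers as a list went both ways, with 4 of 7 positive, a median r of 0.216 and the endocytic receptor gene Cubn at -0.506.

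Other intercalated cell genes took both sides of that axis. Hmx2 (r = 0.889) and Atp6v1c2 (0.82) went with the mean of the 9, while Aqp6 (-0.834, a water channel of type A vesicles), Slc4a8 (-0.80) and Slc26a7 (-0.758, an anion exchanger of medullary type A cells) went against it. The part of these segment markers in the covariation of the 9 genes was not tested.

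The pump has further subunits outside the 9 genes, and all 19 of those listed were tested. Under vehicle 1 of the 19 was lower in BPH/2J mice and none was higher, beside 4.94% of all genes lower and 5.82% higher. The list median was -0.0032. Values ran from -0.63 for Atp6v0a4 (edgeR adjusted p = 0.140) to 0.59 for Atp6v0c (edgeR adjusted p = 0.361). The called gene was Atp6v1c1, the widely expressed C1 subunit, at 85.1 ± 12.3 CPM in BPH/2J vehicle mice (SD, n = 5) and 115 ± 7.82 CPM in BPN/3J vehicle mice (SD, n = 4; log2 fold change -0.43, edgeR adjusted p = 0.0179). Without BPN/3J vehicle replicate 1 or 3 its adjusted p was 0.0537 or 0.0688. Under Cmpd17b it was again the 1 gene called, at 89.9 ± 11 CPM in BPH/2J mice (SD, n = 4) and 122 ± 9.82 CPM in BPN/3J mice (SD, n = 5; log2 fold change -0.44, edgeR adjusted p = 0.0174). Without BPH/2J Cmpd17b replicate 5 or BPN/3J Cmpd17b replicate 2 its adjusted p was 0.0550 or 0.0506.

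Atp6v1b2, the widely expressed alternative to B1, was the more abundant B isoform. The ratio Atp6v1b1 to Atp6v1b2 averaged 0.146 ± 0.0311 in BPH/2J Cmpd17b mice and 0.145 ± 0.00824 in BPN/3J Cmpd17b mice, and 0.139 ± 0.0281 in BPH/2J vehicle mice and 0.154 ± 0.00692 in BPN/3J vehicle mice (SD). Its log2 strain difference was -0.47 under vehicle (edgeR adjusted p = 0.139) and -0.40 under Cmpd17b, and neither was called. Under vehicle the ratio ran from 0.112 to 0.187 in BPH/2J mice and from 0.146 to 0.160 in BPN/3J mice, so the strains overlapped in it. It was chosen after the values were seen and has no test.

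Of 18 other intercalated cell genes, 17 were tested. One was higher in BPH/2J mice under vehicle and 2 under Cmpd17b, and none was lower. Of all genes, 5.82% were called higher under vehicle and 5.71% under Cmpd17b. Slc4a1, the bicarbonate exchanger AE1 of type A cells and also of red cells, averaged 36.9 ± 3.22 CPM in BPH/2J Cmpd17b mice (SD, n = 4) and 18.4 ± 2.65 CPM in BPN/3J Cmpd17b mice (SD, n = 5), a log2 fold change of 1.01 (edgeR adjusted p = 0.000767). Under vehicle it averaged 36.2 ± 8.82 CPM in BPH/2J mice (SD, n = 5) and 21.9 ± 5.39 CPM in BPN/3J mice (SD, n = 4), a log2 fold change of 0.73 (edgeR adjusted p = 0.0120, and 0.0536 without BPN/3J vehicle replicate 2). Red cell genes summed to 1088 to 1701 CPM in BPH/2J Cmpd17b mice and 608 to 873 CPM in BPN/3J Cmpd17b mice, and to 431 to 1686 CPM in BPH/2J vehicle mice and 569 to 724 CPM in BPN/3J vehicle mice. Of the 5 red cell genes tested, 2 were higher in BPH/2J mice under Cmpd17b, the globin gene Hbb-bs (log2 fold change 0.82, edgeR adjusted p = 0.0133) and the heme synthesis gene Alas2 (0.84, edgeR adjusted p = 0.0444), and 0 under vehicle, and their part in the Slc4a1 difference was not tested.

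Aqp6 was called under Cmpd17b, at 30.9 ± 5.14 CPM in BPH/2J mice (SD, n = 4) and 17.0 ± 3.05 CPM in BPN/3J mice (SD, n = 5; log2 fold change 0.86, edgeR adjusted p = 0.0281). Its adjusted p passed 0.05 without BPH/2J Cmpd17b replicate 2 (0.0714), 3 (0.0611) or 4 (0.0665) and without BPN/3J Cmpd17b replicate 2 (0.0788), 3 (0.0637) or 5 (0.0558). Under vehicle the log2 fold change was 0.60 (edgeR adjusted p = 0.138). The ratio Slc26a4 to Slc4a1, of a type B to a type A exchanger gene, was 1.01 to 1.66 in BPH/2J Cmpd17b mice and 2.22 to 5.16 in BPN/3J Cmpd17b mice, which did not overlap. In vehicle mice it was 0.547 to 2.00 in BPH/2J and 1.90 to 4.01 in BPN/3J, which overlapped. This ratio, too, was chosen after the values were seen and has no test. Under Cmpd17b Slc4a1 alone did not overlap between the strains, at 33.3 to 39.8 CPM in BPH/2J mice and 15.96 to 22.4 CPM in BPN/3J mice. Slc4a9, also a gene of type B cells, had a log2 strain difference of 0.10 under Cmpd17b, against -0.35 for Slc26a4. A shift between type A and type B cells was not tested.

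**Figure D5:**
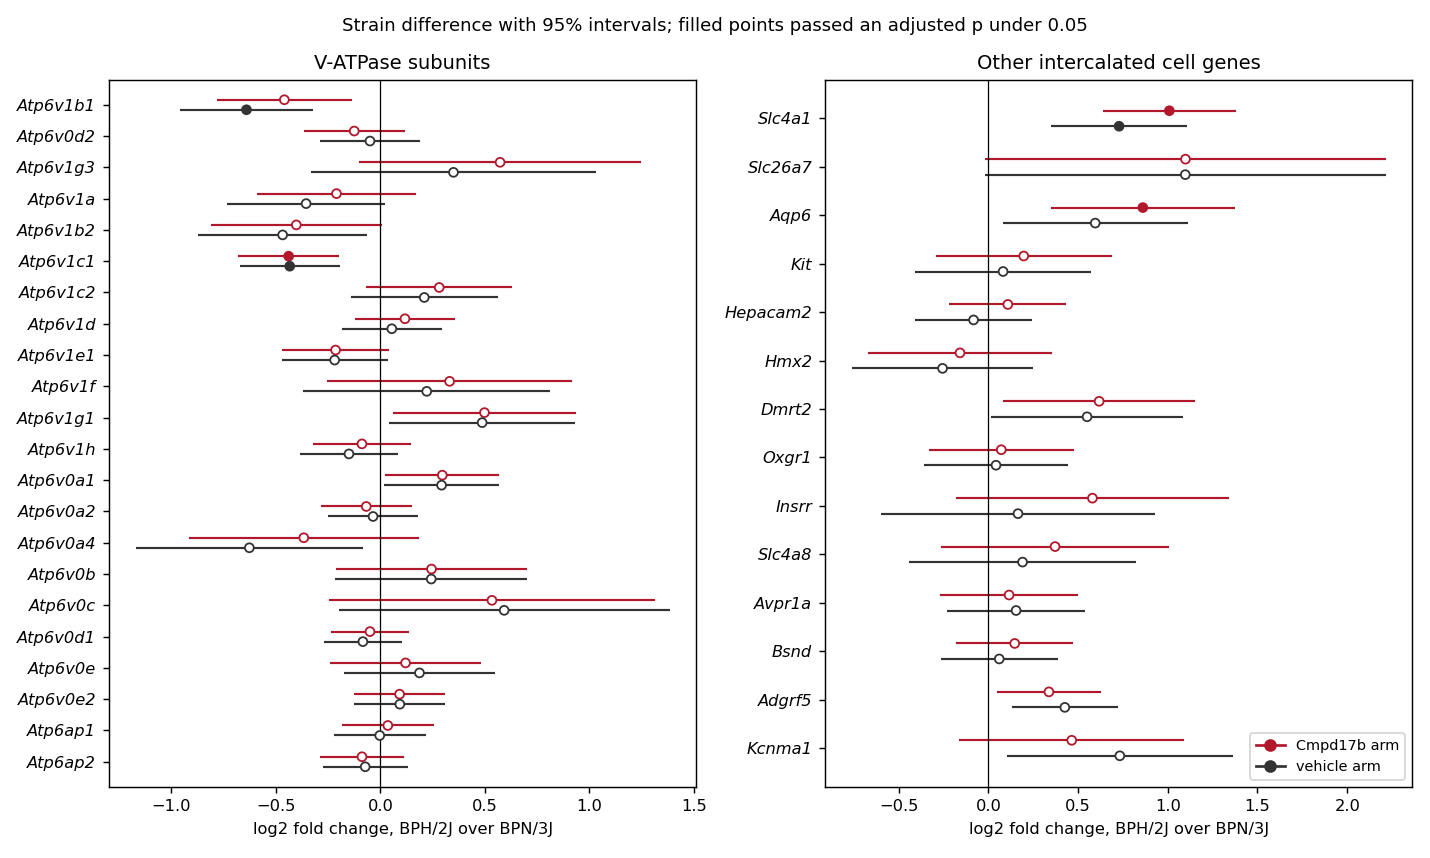
Log2 strain differences (BPH/2J minus BPN/3J) with 95% intervals for pump subunit genes (left) and other intercalated cell genes (right), under Cmpd17b and under vehicle; filled points were called. The other pump subunits had a median of -0.0032 under vehicle and 0.036 under Cmpd17b, with Atp6v1c1 at -0.43 and -0.44 and Slc4a1 at 0.73 and 1.01 under vehicle and under Cmpd17b.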

How the data were processed

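Kidney polyadenylated RNA of 19 mice was analysed from 1 table of estimated counts per gene, deposited by the authors. The submitters' processing notes name Trim Galore 0.6.7, STAR 2.7.9a and the mouse build mm39 (GRCm39). How reads were assigned to genes, and with which annotation, is not given in the sources used here. Of the values in a library 4.63% to 10.1% were not whole, so each estimated count was rounded. BPH/2J Cmpd17b replicate 1 was left out. The other 18 libraries were fitted together with edgeR 4.0.16 (TMM, robust quasi-likelihood F-test, 4 groups) over 16421 genes that passed filterByExpr (minimum count 10, total 15), and p-values were adjusted by Benjamini and Hochberg. The fit was also run on counts simulated with the spread of these data and known changes in the BPH/2J vehicle libraries. The outcome of that run is not reported here, so it gives no measure of error rates. All 9 genes passed the filter. DESeq2 1.42.0, limma 3.58.1 (voom), other filters and scalings, and leaving out each library were the alternatives. Levels per kilobase used the longest protein-coding transcript of GENCODE vM21. The deposited counts carry no strand information.

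The 9 genes and the other lists were chosen with earlier results of these data known, so counts and medians describe them and no test was made over a list. The text names all 9 genes and, for the strain comparisons, up to 4 called genes of each other list with the smallest p or, where none was called, genes with the smallest p. Of the other pump subunits, Atp6v1b2 and the genes at the ends of the range under vehicle are named as well. Heart muscle genes, called throughout in treated BPH/2J mice, are named by example, and listed genes named for their r were chosen after the values were seen. In 2 lists 1 symbol (Tcfcp2l1, a misspelling of Tfcp2l1, and Slc9a3r1, an older name of Nherf1) matched no row. Replicate numbers were given in accession order, and each library has its own animal number in the labels. Library numbers run in blocks by group, so library order and group cannot be told apart. Some listed genes are not reported here.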

Additional observations from a re-analysis of the deposited data

How the results depend on the processing

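The strain difference of Atp6v1b1 under vehicle stayed negative and called under all settings tried except with the left-out library added back (19 libraries), where it was -0.64 with an adjusted p of 0.786 and 0 of the 9 genes were called, against 1 with 18 libraries. Under Cmpd17b 0 of the 9 were called with 18 libraries and 1, Atp6v1b1, with DESeq2 and with the animal number as a covariate; leaving out 1 library gave 0 to 1. With 19 libraries several values that were not called changed sign: the strain difference under Cmpd17b was -0.24 for Foxi1, -0.031 for Rhbg, -0.11 for Rhcg and -0.22 for Slc4a9; the Cmpd17b difference in BPH/2J mice was -0.12 for Atp6v1b1, -0.20 for Atp6v1g3, -0.23 for Rhcg and -0.22 for Slc26a4; the interaction was -0.14 for Atp6v1b1, -0.098 for Atp6v1g3, -0.079 for Rhbg, -0.24 for Slc26a4 and -0.063 for Slc4a9. The added library is labelled kidney but held almost no reads of the 9 genes. With limma-voom the strain difference under vehicle was -0.037 for Rhbg, the Cmpd17b difference in BPH/2J mice was 0.0080 for Atp6v0d2 and the Cmpd17b difference in BPN/3J mice was -0.00090 for Slc26a4, and with the animal number the Cmpd17b difference in BPN/3J mice was -0.042 for Atp6v1b1. The causes were not tested. Leaving out 1 library changed the sign of some values that were not called, and not only of those near 0. With 18 libraries Rhbg stood at 0.29 in the strain difference under Cmpd17b and Slc4a9 at 0.26 in the interaction. The strain difference under vehicle ran from -0.11 to 0.027 for Atp6v0d2, -0.18 to 0.024 for Car2, -0.12 to 0.17 for Rhbg and -0.40 to 0.021 for Slc4a9. The strain difference under Cmpd17b ran from -0.032 to 0.20 for Foxi1, -0.054 to 0.43 for Rhbg, -0.16 to 0.39 for Rhcg and -0.22 to 0.23 for Slc4a9. The Cmpd17b difference in BPH/2J mice ran from -0.084 to 0.065 for Atp6v0d2, -0.16 to 0.34 for Atp6v1g3, -0.15 to 0.035 for Car2, -0.28 to 0.28 for Rhcg and -0.064 to 0.19 for Slc26a4. The Cmpd17b difference in BPN/3J mice ran from -0.046 to 0.097 for Atp6v1b1, -0.30 to 0.15 for Atp6v1g3, -0.023 to 0.18 for Car2 and -0.098 to 0.091 for Slc26a4. The interaction ran from -0.054 to 0.45 for Atp6v1g3, -0.18 to 0.050 for Foxi1, -0.10 to 0.41 for Rhbg, -0.39 to 0.16 for Rhcg, -0.080 to 0.20 for Slc26a4 and -0.061 to 0.50 for Slc4a9. Of all genes, 1766 were called under vehicle, against 566 with 19 libraries and 3876 in the average of both treatments. Cmpd17b against vehicle called 27 in BPH/2J mice (41 with DESeq2 and 0 with 19 libraries) and 0 in BPN/3J mice (6 with DESeq2, and 415 at an unadjusted p under 0.05). The interaction called 5 (15 with DESeq2, 0 with 19 libraries, and 1 to 6 without 1 library). With 19 libraries the strain calls of Atp6v1c1 (adjusted p = 0.118), Slc4a1 (0.730), Car15 (0.634), Slc38a3 (0.122) and Calb1 (0.826) under vehicle, and of Slc4a1 (0.501), Car15 (0.319) and Calb1 (0.434) under Cmpd17b, were lost. With no filter on low counts the adjusted p was 0.126 for Slc38a3 and 0.0528 for Calb1 under vehicle, and 0.0873 for Slc38a3 under Cmpd17b. With only the compared groups in the fit it was 0.0629 for Slc4a1 and 0.0568 for Calb1 under vehicle, and 0.0569 for Slc38a3 and 0.0615 for Calb1 under Cmpd17b. No scaling moved the median of all genes past 0.1. No paired analysis was possible because each mouse has its own animal number and the replicate numbers follow accession order. Among the 18 libraries the lowest count of any of the 9 genes was 311, and the biological coefficient of variation over all genes was 0.251.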

Other observations

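Acid-base genes of other nephron segments were tested for 17 of 18 listed genes. In BPH/2J mice 2 were higher and 0 lower under both treatments, beside 5.71% higher and 4.65% lower of all genes under Cmpd17b and 5.82% and 4.94% under vehicle. Car15, a membrane-bound carbonic anhydrase, averaged 153 ± 56.2 CPM in BPH/2J Cmpd17b mice (SD, n = 4) and 57.0 ± 14.5 CPM in BPN/3J Cmpd17b mice (SD, n = 5), a log2 fold change of 1.43 (edgeR adjusted p = 0.000498). Under vehicle it averaged 140 ± 41 CPM in BPH/2J mice (SD, n = 5) and 68.6 ± 3.98 CPM in BPN/3J mice (SD, n = 4), a log2 fold change of 1.03 (edgeR adjusted p = 0.00959). Car15 kept its call in each of the 18 fits that left out 1 library, in both comparisons. Slc38a3, a glutamine transporter that feeds ammonia formation in the proximal tubule, had log2 fold changes of 1.22 under Cmpd17b (edgeR adjusted p = 0.0283) and 1.14 under vehicle (adjusted p = 0.0458), and its call was lost in 3 and in 13 of the 18 fits for the Cmpd17b and the vehicle comparison (highest adjusted p 0.0886 without BPH/2J Cmpd17b replicate 2 and 0.128 without BPN/3J vehicle replicate 4).

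Among 7 genes of the distal convoluted and connecting tubule, 1 was lower in BPH/2J mice under both treatments, beside 4.65% of all genes lower under Cmpd17b and 4.94% under vehicle. This was Calb1, a calcium-binding protein, with log2 fold changes of -0.60 under Cmpd17b (edgeR adjusted p = 0.0387, lost in 6 of 18 fits) and -0.57 under vehicle (edgeR adjusted p = 0.0438, lost in 12 of 18 fits). Its adjusted p reached 0.116 without BPN/3J Cmpd17b replicate 2 in the Cmpd17b comparison and 0.105 without BPN/3J vehicle replicate 2 in the vehicle comparison. None of 10 principal cell, 5 thick ascending limb or 7 proximal tubule genes was called in either strain comparison by edgeR, where 10.4% of all genes were called under Cmpd17b and 10.8% under vehicle. With the smallest p of their lists under Cmpd17b were Aqp2, the vasopressin-regulated water channel (0.82, edgeR adjusted p = 0.0683), Cldn16, a tight junction gene of the thick ascending limb (0.51, edgeR adjusted p = 0.0503), and Slc22a6, an organic anion transporter of the proximal tubule (-0.40, edgeR adjusted p = 0.0883). Under vehicle Slc22a6 stood at -0.44 (edgeR adjusted p = 0.0519) with each BPH/2J value below each BPN/3J value, Cubn at -0.52 (edgeR adjusted p = 0.0749), Cldn16 at 0.45 (edgeR adjusted p = 0.0904) and Scnn1b, a sodium channel subunit of principal cells, at 0.27 (edgeR adjusted p = 0.358).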
